A study of Mus musculus with 72 samples.

Results

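The neurotrophin receptor Ntrk2, the phosphate transporter Slc34a2, the lysyl oxidase relative Loxl4, lipoprotein lipase (Lpl) and beta-defensin 1 (Defb1) were followed in mouse liver with and without the circadian clock gene Bmal1. These 5 genes were taken from 55573 in the deposited count table because they were among the largest increases in knockout liver. RNA-Seq was performed on bulk liver of adult male mice (C57BL/6 in the labels, C57BL/6J background in the methods) at 6 Zeitgeber times (ZT2, ZT6, ZT10, ZT14, ZT18 and ZT22, hours after lights on), with 3 mice per group and time and 72 libraries in all. Each combination of genotype (WT or LKO) and microbial status (SPF or GF) had 18 libraries. WT mice were Bmal1 fl/fl and carried no Cre. LKO mice were Bmal1 fl/fl with Albumin-Cre, so that Bmal1 was deleted in cells in which the albumin promoter is active, mainly hepatocytes, while other liver cells and other organs kept it. The conditional allele and autoclaved chow were common to all groups. SPF mice carried a gut microbiota, and GF mice were raised germ free in flexible film isolators, so that microbes and isolator housing cannot be told apart. Libraries held 17369927 to 22076113 counts.

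The hepatic clock is a feedback loop in which BMAL1 pairs with CLOCK or NPAS2 and binds E-box sequences, and in which the products PER, CRY and REV-ERB in turn hold back BMAL1 activity or transcription. Genes under this loop follow the time of day, and genes that its repressors hold down can gain transcript when BMAL1 is lost. Ntrk2 encodes TrkB, the receptor for BDNF and best known from neurons. Slc34a2 encodes the sodium-phosphate cotransporter NaPi-IIb of gut and lung epithelium. Loxl4 is one of the copper enzymes that crosslink collagen and elastin. Lpl hydrolyses the triglyceride of circulating lipoproteins and is made chiefly in fat and muscle, while adult liver makes little. Defb1 is an antimicrobial peptide of epithelia.

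The difference between LKO and WT livers chose the genes, so their values in that contrast are given as a description, with no test. The genes were selected on the size of their increase. They were ranked by log2 fold change among genes called higher in LKO (adjusted p under 0.05) that were higher at each of the 6 ZT and averaged 1 or more in log2 CPM (counts scaled to library size by TMM). Of all genes tested, 11.6% in SPF mice and 15.6% in GF mice were called higher in LKO, and all 5 genes were among them by the way they were chosen. Ntrk2, Slc34a2, Loxl4 and Lpl held ranks 1 to 4 of 994 in SPF mice by log2 fold change, followed by the sulfotransferase Sult1e1 (3.87), Cyp2c55 (3.76), Grk5 (3.39) and Npas2 (3.25), while Defb1 was at rank 15 (2.61). In GF mice Sult1e1 came first of 1200 (5.42), with Ntrk2, Slc34a2, Lpl and Defb1 at ranks 2 to 5, 3930402G23Rik at rank 6 (3.76), Loxl4 at rank 7 (3.53) and Cyp2c55 at rank 8 (3.37). Sult1e1 was thus as large an increase as several of the 5 genes and was not among them. The 5 genes were also not all silent in WT liver. Lpl had at least 15.4 CPM in every WT library, and counts of 0 were found only for Slc34a2, in 3 libraries.

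In all, 4 libraries did not behave as labelled and are described before the comparisons. The libraries labelled SPF LKO ZT14 replicate 2 and SPF LKO ZT18 replicate 1 had 0.22 and 1.83 CPM of Npas2, against 14.4 to 36.4 CPM in the other 16 SPF LKO libraries. Npas2 encodes a partner of BMAL1. Total Arntl (Bmal1) counts, which cover the whole gene and not the deleted exons alone, ran from 8.52 to 16.8 CPM in those 16 libraries and from 0.626 to 39.5 CPM over the day in SPF WT libraries, and were 13.1 and 29.3 CPM in those 2 libraries. The library labelled SPF WT ZT14 replicate 3 had 84.8 CPM of Nr1d1 beside 8.55 and 3.07 CPM in its group and time. The library labelled GF WT ZT6 replicate 3 had 9.39 CPM of Nr1d1 beside 51.1 and 49.1 CPM. All 5 genes were also at WT-like levels in both of these SPF LKO libraries. Many results that rest on the 4 libraries are given with and without them.

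The genes lie apart in the mouse genome (GRCm38), on chromosomes 13 (Ntrk2, chr13:58806569-59133970, plus strand), 5 (Slc34a2, chr5:53038081-53071664, plus strand), 19 (Loxl4, chr19:42593982-42612813, minus strand) and 8 (Lpl, chr8:68880491-68907448, and Defb1, chr8:21776599-21795185, both plus strand). Ntrk2 overlaps 4 other annotated genes and Slc34a2 overlaps 1, the antisense Gm17182. Reads were counted without strand, and reads on exons of several genes were left out, so counts can be lost where exons overlap. Promoters of Ntrk2, Slc34a2 and Loxl4 were matched in the RefSeq table (GRCm38.p6). They are shown because the genotypes differ in a clock factor that binds short motifs. The 250 bases before each start site, read 5′ to 3′ on the strand of the gene, were chr13:58806319-58806568 (plus) for Ntrk2, chr5:53049103-53049352 (plus) for Slc34a2 and chr19:42612807-42613056 (minus) for Loxl4. The RefSeq starts of Slc34a2 and Loxl4 lie inside the Ensembl gene records, that of Loxl4 by only a few bases. Capitals would mark a motif, and none was found.
Ntrk2: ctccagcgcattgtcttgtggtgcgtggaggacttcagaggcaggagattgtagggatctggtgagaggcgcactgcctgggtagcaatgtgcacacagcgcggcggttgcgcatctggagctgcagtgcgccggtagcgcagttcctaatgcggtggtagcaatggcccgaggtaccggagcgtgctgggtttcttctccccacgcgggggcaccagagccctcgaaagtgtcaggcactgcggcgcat
Slc34a2: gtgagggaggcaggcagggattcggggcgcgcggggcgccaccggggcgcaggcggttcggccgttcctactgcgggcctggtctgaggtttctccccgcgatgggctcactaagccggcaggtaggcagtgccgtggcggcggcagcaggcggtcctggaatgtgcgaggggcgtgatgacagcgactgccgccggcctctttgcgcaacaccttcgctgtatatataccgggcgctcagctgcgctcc
Loxl4: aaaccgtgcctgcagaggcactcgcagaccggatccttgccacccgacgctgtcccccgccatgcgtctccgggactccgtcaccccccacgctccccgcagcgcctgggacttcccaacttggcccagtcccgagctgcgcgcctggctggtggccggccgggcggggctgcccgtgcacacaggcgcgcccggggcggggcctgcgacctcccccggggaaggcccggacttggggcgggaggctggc
Searched on both strands, none of the 3 sequences held the E-box CACGTG, its variant CACGTT, or the receptor sites AGGTCA and the related GGGTCA, which ROR and REV-ERB bind. CACGTG reads the same on both strands, and motifs were allowed to overlap in part. Of 32851 promoter windows of this length, 6.02% held CACGTG, 3.85% CACGTT, 14% AGGTCA and 11.6% GGGTCA, and 31% held any of the 4. The 3 sequences were rich in G and C, at 62.8% for Ntrk2, 69.6% for Slc34a2 and 76% for Loxl4, against a median of 52.4% over all windows.

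By the way they were chosen, the 5 genes had far more transcript in LKO livers. The share of all genes whose groups do not overlap was not counted, so the overlap is a description of these 5 genes. In SPF mice, 16 of 18 LKO libraries lay above the highest WT library for each of the 5 genes, and the exceptions were always the libraries labelled ZT14 replicate 2 and ZT18 replicate 1. In GF mice all 18 LKO libraries lay above the highest WT library for Ntrk2, Loxl4, Lpl and Defb1, and 17 of 18 did so for Slc34a2. In bulk tissue, more cells of a type and more RNA per cell cannot be told apart.

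**Figure D1:**
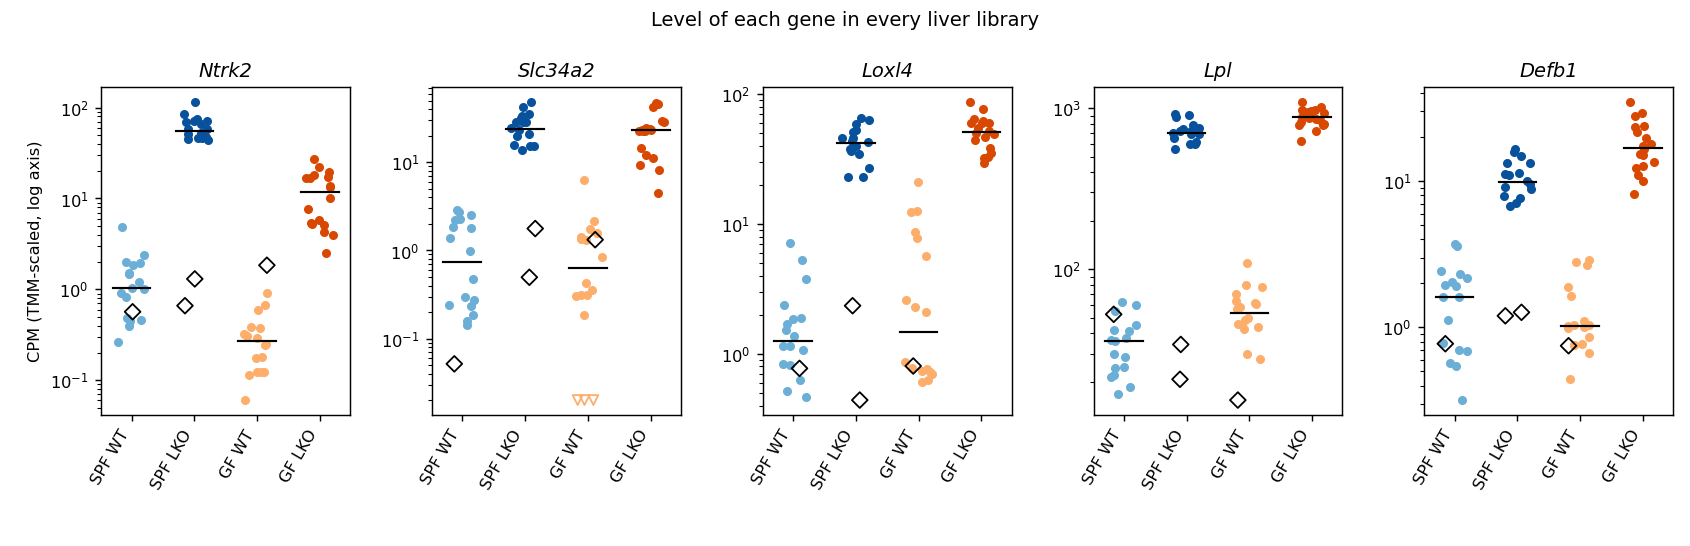
CPM of each gene (log axis) in each of the 72 libraries, by group, with the median as a bar. Open diamonds are the 4 libraries that stood apart, and open triangles at the foot are the 3 GF WT libraries with 0 counts of Slc34a2. Apart from the diamonds, LKO points lie above the WT points of the same microbial status except for 1 pair of GF libraries in Slc34a2, and Ntrk2 is lower in GF LKO (2.54 to 26.98 CPM) than in SPF LKO.

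Ntrk2 showed the widest genotype difference in SPF mice and was lower in GF LKO than in SPF LKO livers. In SPF WT livers it ran from 0.265 to 4.89 CPM with a median of 1.03, and in SPF LKO livers from 43.5 to 114.5 CPM with a median of 57.8 in the 16 libraries that matched their label. The libraries labelled SPF LKO ZT14 replicate 2 and ZT18 replicate 1 had 0.66 and 1.30 CPM. WT and LKO livers thus shared no value once these were set aside, and the log2 fold change was 5.38 (SE 0.41) with them and 5.55 without. GF WT livers ran from 0.0606 to 1.84 CPM (median 0.273) and GF LKO livers from 2.54 to 26.98 CPM (median 11.8), with a log2 fold change of 4.88 (SE 0.36), and 5.23 without the library that stood apart. The highest GF WT value was that of the library labelled ZT6 replicate 3, and without it the GF WT maximum was 0.919 CPM.

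The comparison of GF with SPF mice was not used to choose Ntrk2, Slc34a2 or Lpl and was tested for these 3 with edgeR's quasi-likelihood test, adjusted over all genes by the method of Benjamini and Hochberg. In LKO livers 1 of the 3 was called, Ntrk2, where 36.4% of all genes tested were called. Ntrk2 was 4.68-fold lower in GF LKO than in SPF LKO livers, a log2 fold change of -2.23 (SE 0.35, adjusted p = 9.07e-06). Every GF LKO library lay below the SPF LKO median, and without the libraries that stood apart the groups did not overlap at any of the 6 ZT. Without those libraries the log2 fold change in LKO livers was -2.39. In WT livers Lpl was called and Slc34a2 was not, where 31.8% of all genes tested were called. Ntrk2 was also called by edgeR there but is given as a description, because it passed the filter on low counts mostly through the group in which it was high: 13 SPF WT and 4 GF WT libraries reached 0.527 CPM, and 16 of 36 were needed. Its log2 fold change was -1.74 (SE 0.37), or -2.13 without the libraries that stood apart. Of the GF WT libraries, 17 of 18 lay below the SPF WT median. Without replicate 2 or replicate 3 Ntrk2 did not pass the filter. Whether the microbial difference of Ntrk2 itself differed between WT and LKO was not tested.

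**Figure D2:**
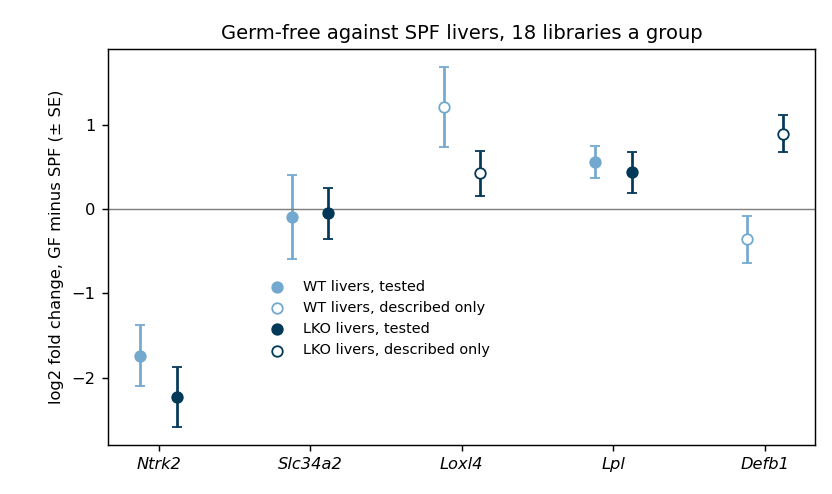
Log2 fold change of GF minus SPF livers (± SE, 18 libraries a group) in WT and in LKO mice. Filled points entered the test and open points did not, and the filled WT point of Ntrk2 is read as a description. Ntrk2 lies at -1.74 and -2.23, Slc34a2 near 0, and Lpl at 0.56 and 0.44.

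Of the partners of TrkB, Bdnf alone was called, and it was lower in LKO livers. Of 22 other neurotrophin and receptor genes, 12 were tested in SPF mice and 11 in GF mice, and Bdnf, the ligand of TrkB, was called in both, lower in LKO. Its log2 fold change was -0.68 (SE 0.24, adjusted p = 0.039) in SPF mice and -1.52 (SE 0.24, adjusted p = 3.07e-06) in GF mice, from 1.91 to 1.201 and from 1.67 to 0.576 mean CPM. The adaptor genes Frs2 and Shc1 and the co-receptor Ngfr were not called, and the median log2 fold change of the tested genes was -0.07 in SPF and -0.02 in GF mice, beside -0.01 and 0.01 for all genes. Of all genes tested, 11.5% in SPF mice and 15.2% in GF mice were called lower in LKO. Ntrk3 had 0.06 to 0.13 mean CPM in the 4 groups. The cells that these transcripts came from were not tested.

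Slc34a2 was low in WT livers, high in LKO livers, and not called for microbial status. It ran from 0.0516 to 2.89 CPM in SPF WT (median 0.732) and from 13.8 to 48.2 CPM in the 16 SPF LKO libraries (median 26.5), with 0.50 and 1.77 CPM in the libraries labelled ZT14 replicate 2 and ZT18 replicate 1. It ran from 0 to 6.27 CPM in GF WT (median 0.635) and from 4.55 to 47.2 CPM in GF LKO (median 23.1). The log2 fold change was 4.37 (SE 0.41) in SPF mice, 4.53 without those 2 libraries, and 4.40 (SE 0.39) in GF mice. GF WT and GF LKO overlapped through 1 GF WT library, ZT22 replicate 3, and 1 GF LKO library, ZT10 replicate 2. GF minus SPF was -0.09 on the log2 scale in WT livers (95% interval -1.07 to 0.89, adjusted p = 0.907) and -0.05 in LKO livers (-0.64 to 0.55, adjusted p = 0.918), so that a difference within those bounds remains possible.

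In WT livers Slc34a2 had its lowest mean at ZT10. In SPF WT livers it had 0.23, 0.18 and 0.16 CPM at ZT10 and 1.84, 2.89 and 2.75 CPM at ZT22. In GF WT livers all 3 libraries at ZT10 had 0 counts, which allows up to 3 counts or about 0.172 CPM in a library, and the 3 at ZT18 had 1.73, 1.58 and 2.18 CPM. No ZT10 library reached the level of a ZT18 library in either group. The F test of the 6 ZT gave an adjusted p of 0.0292 in SPF WT and 0.0152 in GF WT (edgeR's quasi-likelihood test). Both are read as a description, because Slc34a2 passed the filter on low counts through the times at which it was high. In each of SPF WT and GF WT, 9 libraries reached 0.527 CPM, none of them at ZT10. The call in SPF WT was lost when any 1 of 9 libraries was left out, at adjusted p up to 0.0729, and without replicate 1 (0.165), 2 (0.244) or 3 (0.0554). The call in GF WT was lost without replicate 2 (0.223). Without the libraries that stood apart, the same test gave an adjusted p of 0.0036 in SPF WT and 0.00625 in GF WT. In LKO livers the F test gave an adjusted p of 0.926 in SPF mice and 0.105 in GF mice (unadjusted 0.0397). Without the SPF LKO libraries labelled ZT14 replicate 2 and ZT18 replicate 1, it gave an adjusted p of 0.103 in SPF mice (unadjusted 0.0123). In GF LKO livers the means at ZT10 and ZT14 were 13.8 ± 12.9 and 39.4 ± 8.46 CPM (SD, n = 3). At ZT10 in GF mice the ratio of the LKO mean to the WT level that 3 counts in a library allow was 79.9 or more. That ratio is a description and leaves out the LKO spread, from 4.55 to 28.5 CPM.

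The other phosphate transporters differed less between genotypes, or were nearly absent. The kidney isoforms Slc34a1 and Slc34a3 had 13 and 1 counts over all 72 libraries. Of the 10 of 12 related transporters that were tested, 3 were higher and 1 lower in SPF LKO, and 3 were higher and 3 lower in GF LKO. Over all genes, 23.1% were called in SPF and 30.8% in GF mice, in either direction. Slc17a4, an intestinal anion and phosphate transporter, was higher by 0.78 in both (SE 0.14 and 0.15), and Slc17a1 by 0.46 and 0.98. The ubiquitous importer Slc20a2 was also higher, by 0.31 and 0.25, whereas Slc17a2 was lower by -0.79 and -0.77. The phosphate exporter Xpr1 was not called, at -0.11 and -0.15. Without the 2 SPF LKO libraries, 3 transporters were called lower in SPF mice, with Slc20a1 (-0.37) and Slc37a4 (-0.40) added. The median log2 fold change of the tested transporters was 0.01 in SPF and 0.03 in GF mice.

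Loxl4 was called over the day in both WT groups and in GF LKO livers, around levels far apart. It ran from 0.465 to 7.12 CPM in SPF WT (median 1.26) and from 23.2 to 65.8 CPM in the 16 SPF LKO libraries (median 43.5), with 0.44 and 2.35 CPM in the libraries labelled ZT14 replicate 2 and ZT18 replicate 1. In GF mice it ran from 0.612 to 20.9 CPM in WT (median 1.48) and from 29.3 to 86.5 CPM in LKO (median 51.1), with no value in common. The log2 fold change was 4.33 (SE 0.39) in SPF mice, 4.49 without those 2 libraries, and 3.53 (SE 0.39) in GF mice, where it was 4.09 with ZT as a covariate. It varied with the hour, from 2.16 at ZT22 to 6.09 at ZT14 in GF mice. Loxl4 was chosen for its rank in SPF mice, so its microbial difference is a description: GF minus SPF was 1.21 (SE 0.47) in WT and 0.43 (SE 0.27) in LKO livers.

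In WT livers Loxl4 was high at the end of the night. GF WT livers had 7.86, 8.68 and 20.9 CPM at ZT22 and 5.63, 12.7 and 12.3 CPM at ZT2, and no library at ZT6, ZT10 or ZT14 was above 0.87 CPM. SPF WT livers had 5.30, 3.77 and 7.12 CPM at ZT22 and 1.85, 1.89 and 1.70 CPM at ZT2. At ZT22 and ZT2 no GF WT library overlapped those of SPF WT, while at ZT6, ZT10, ZT14 and ZT18 the means of both groups stayed at or under 2.33 CPM. The F test over ZT gave an adjusted p of 0.000187 in SPF WT and 2.06e-07 in GF WT. The difference in time profile between the states, which was not used to choose the genes, had an unadjusted p of 2.64e-05 for Loxl4 in WT livers but an adjusted p of 0.0858 by edgeR's test. By DESeq2 it was called, at an adjusted p of 0.000403.

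In LKO livers Loxl4 also had its lowest mean at ZT10. The time courses of WT and LKO livers were not compared by a test. GF LKO livers had 34.9, 32.8 and 29.3 CPM at ZT10 against 60.3, 64.8 and 76.8 CPM at ZT2, with no overlap, and the ratio of the highest to the lowest ZT mean was 2.08 beside 17.8 in GF WT. The adjusted p over ZT was 0.00308 in GF LKO, and 0.101 without replicate 3. In SPF LKO it was 0.814 with all 18 libraries and 0.0278 without the libraries labelled ZT14 replicate 2 and ZT18 replicate 1, with 23.2, 26.8 and 23.2 CPM at ZT10. Across the day, 3 of 5 genes were called in SPF WT (7.06% of all genes tested), 0 of 5 in SPF LKO (5.3%), 2 of 5 in GF WT (13.6%) and 1 of 5 in GF LKO (26.7%). Both WT counts include Slc34a2, whose time course there is read as a description. With all 18 libraries, the 0 in SPF LKO was also 0 at an unadjusted p under 0.05 and 0 by DESeq2. It became 1 without the 2 libraries. The unadjusted p by edgeR's test was then 0.000953 for Loxl4, 0.0123 for Slc34a2 and 0.0455 for Lpl. For Ntrk2 and Defb1 it was 0.187 and 0.431. With all libraries, the genes at an unadjusted p under 0.05 were 3 in SPF WT, 2 in GF WT and 3 in GF LKO.

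**Figure D3:**
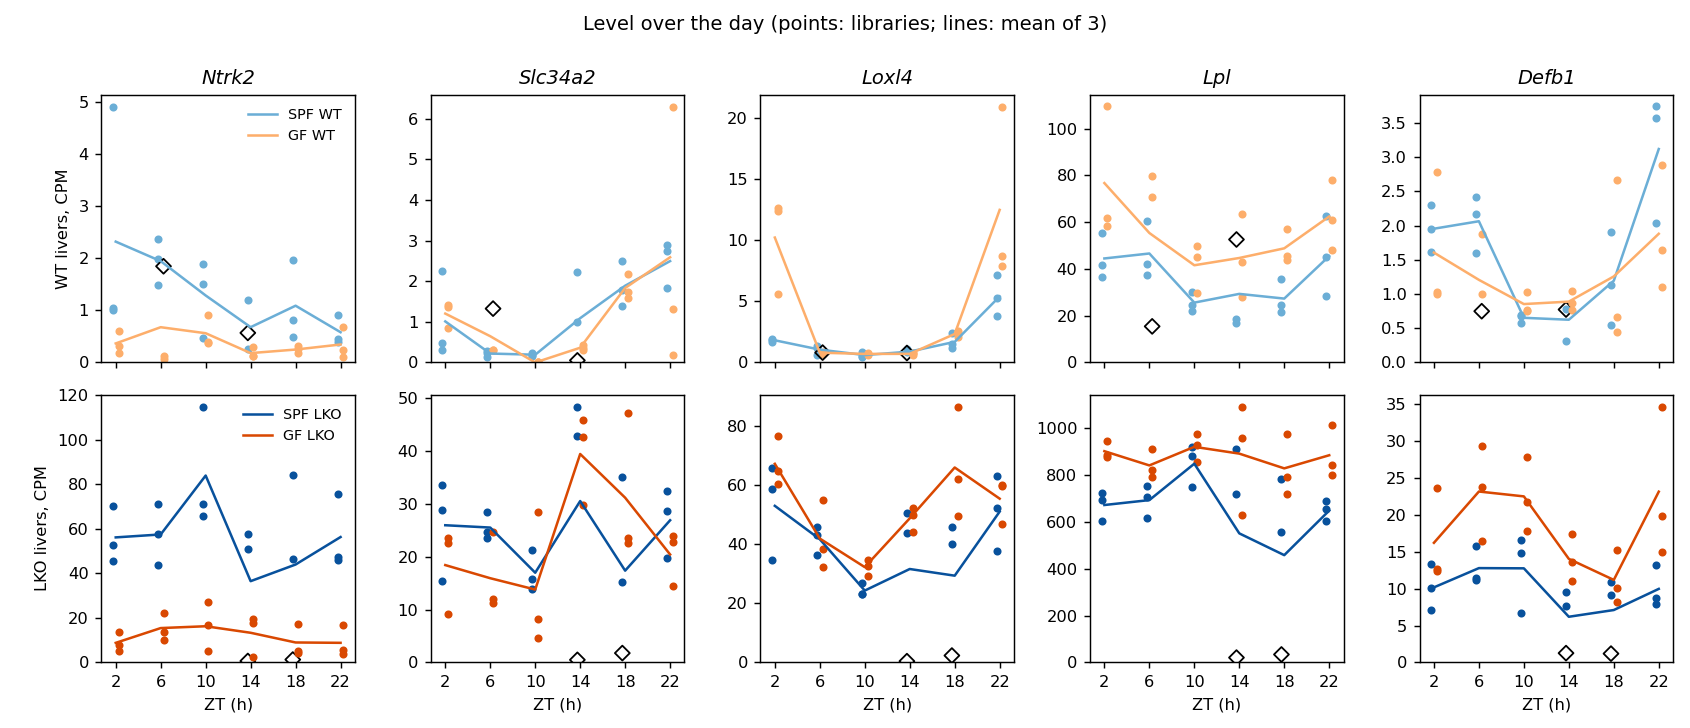
CPM of each gene over ZT (hours) in WT livers (upper row) and LKO livers (lower row), with points for libraries, lines for the mean of 3 and open diamonds for the 4 libraries that stood apart, which the means include. Loxl4 in GF WT reaches a mean of 12.5 CPM at ZT22 and 0.701 at ZT10, and in GF LKO 67.3 CPM at ZT2 and 32.3 at ZT10.

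Few enzymes and substrates of matrix crosslinking were called. Of 19 listed genes besides Loxl4, 18 were tested in each state, 1 was higher in SPF LKO and 2 in GF LKO, and none was lower, where 11.6% and 15.6% of all genes were called higher and 11.5% and 15.2% lower. These were Col4a2, a chain of basement membrane collagen, by 0.54 (SE 0.14) in SPF and 0.36 (SE 0.14) in GF mice, and Loxl2 by 0.32 (SE 0.12) in GF mice. Lox itself had 0.24 to 0.35 mean CPM in the 4 groups and was not tested, and Loxl1 and Loxl3 were not called. The fibrillar collagens Col1a1, Col1a2 and Col3a1 and elastin (Eln) were not called. The median log2 fold change was 0.15 in SPF and 0.16 in GF mice, beside -0.01 and 0.01 for all genes.

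Lpl was the most abundant of the 5 genes and, in GF LKO livers, the least variable between mice. It ran from 16.8 to 62.8 CPM in SPF WT (median 36.1) and from 555.0 to 917 CPM in the 16 SPF LKO libraries (median 713.5), with 20.8 and 34.2 CPM in the libraries labelled ZT14 replicate 2 and ZT18 replicate 1. In GF mice it ran from 15.4 to 109.8 CPM in WT (median 53.4) and from 627.7 to 1089 CPM in LKO (median 879). No LKO value other than those 2 came near a WT value. The log2 fold change was 4.14 (SE 0.31) in SPF mice, 4.30 without those 2 libraries, and 4.004 (SE 0.16) in GF mice. The coefficient of variation over 18 GF LKO libraries was 12.6%, against 61.6% for Ntrk2, 53.9% for Slc34a2, 39.3% for Defb1 and 29.9% for Loxl4.

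Mean Lpl was higher in GF than in SPF livers at all 6 ZT in both genotypes. In WT livers the log2 fold change was 0.56 (SE 0.19, adjusted p = 0.0224), with 15 of 18 GF libraries above the SPF median. This call was lost without replicate 1 (adjusted p = 0.391) and without replicate 2 (adjusted p = 0.139). Without the WT libraries that stood apart, the log2 fold change was 0.66 (adjusted p = 0.0048 by edgeR's test). In LKO livers it was 0.44 (SE 0.24, 95% interval -0.04 to 0.91, adjusted p = 0.156), with 17 of 18 GF libraries above the SPF median. Without the 2 SPF LKO libraries it was 0.27, with an adjusted p of 0.0018. Over ZT, Lpl was not called in any group. In SPF WT its adjusted p was 0.261. It was 0.0161 once ZT14 replicate 3 was set aside, which had 52.6 CPM beside 18.6 and 16.8. GF LKO means lay between 827.9 ± 130.8 CPM at ZT18 and 919.8 ± 59.5 CPM at ZT10 (SD, n = 3), and the adjusted p was 0.945.

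Genes that act with LPL were called in both directions. Of 26 listed genes besides Lpl, all 26 were tested in each state, and 3 were higher and 5 lower in SPF LKO and 4 higher and 7 lower in GF LKO. The counts of higher genes lay near the 11.6% and 15.6% called higher over all genes, beside 11.5% and 15.2% called lower. Among the sister lipases, hepatic lipase (Lipc) was higher by 0.65 (SE 0.08) in SPF and 0.82 (SE 0.05) in GF LKO livers, from 184 to 291 and from 221 to 387 mean CPM, while endothelial lipase (Lipg) was lower by -1.63 (SE 0.27) and -2.37 (SE 0.35), from 16.4 to 5.37 and from 20.8 to 3.998 mean CPM. The LPL inhibitor Angptl4 was lower by -0.86 (SE 0.25) and -0.75 (SE 0.23), whereas the inhibitor Angptl8 was not called. Gpihbp1, which carries LPL across capillary endothelium, was not called (-0.14 and -0.01), and Lmf1, which matures lipases in the endoplasmic reticulum, was higher in SPF mice (0.25, SE 0.06) and not called in GF mice (0.17). The fatty acid receptor Cd36 was lower by -0.68 and -0.67, and the phospholipid transfer protein Pltp by -0.60 and -1.11. Furin, a protease that cleaves LPL, was lower by -0.28 and -0.39, and Pcsk5, of the same family, was higher by 0.24 and 0.23. Of the apolipoproteins, the activator Apoc2 (0.39) and the inhibitor Apoc3 (0.20) were higher and Apoe (-0.19) lower in GF mice only by the threshold, and the difference between the states was not tested. The lipoprotein receptor Vldlr was lower in GF mice (-0.64, SE 0.25). The median log2 fold change of the list was -0.05 in SPF and -0.11 in GF mice.

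**Figure D4:**
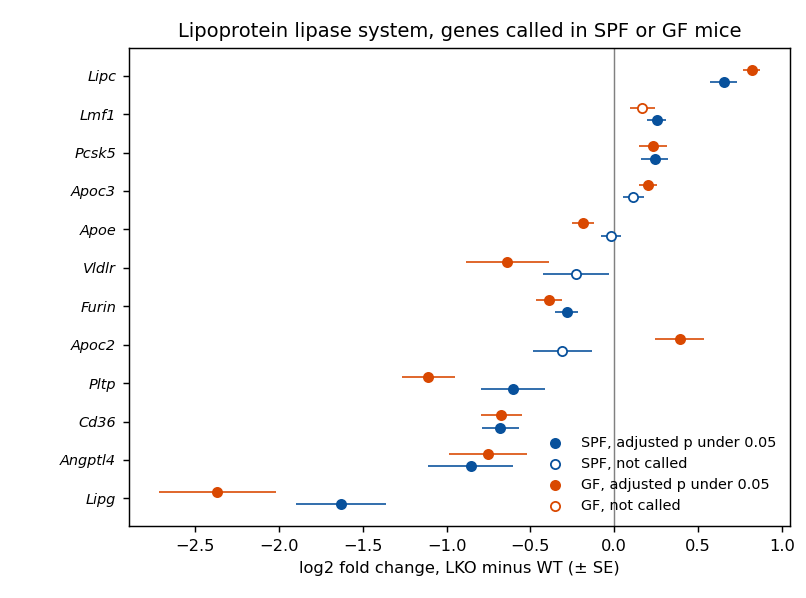
Log2 fold change of LKO minus WT livers (± SE) for the genes of the lipoprotein lipase list, other than Lpl, that were called in SPF or GF mice, with filled points for an adjusted p under 0.05. Lipc lies farthest to the right (0.65 and 0.82) and Lipg farthest to the left (-1.63 and -2.37).

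Defb1 differed more between genotypes in GF than in SPF mice. It ran from 0.319 to 3.74 CPM in SPF WT (median 1.61) and from 6.75 to 16.7 CPM in the 16 SPF LKO libraries (median 10.5), with 1.27 and 1.2 CPM in the libraries labelled ZT14 replicate 2 and ZT18 replicate 1. In GF mice it ran from 0.442 to 2.89 CPM in WT (median 1.02) and from 8.16 to 34.6 CPM in LKO (median 16.96). The genotypes did not overlap in either state apart from those 2 libraries. The log2 fold change was 2.61 (SE 0.28) in SPF mice, 2.75 without those 2 libraries, and 3.85 (SE 0.22) in GF mice. Defb1 was chosen for its rank in GF mice, so this contrast between states, and a GF minus SPF value of 0.90 (SE 0.22) in LKO and -0.36 (SE 0.28) in WT livers, are descriptions with no test.

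In SPF WT livers Defb1 was called over the day (adjusted p = 0.00489), a call lost without replicate 1 (0.17) and without replicate 2 (0.114). It had 3.74, 3.57 and 2.04 CPM at ZT22 and 0.70, 0.69 and 0.57 CPM at ZT10, without overlap. In GF WT livers the ZT22 values were 2.89, 1.64 and 1.11 CPM and the adjusted p was 0.56. In LKO livers it was 0.62 in SPF mice and 0.0631 in GF mice. No time profile differed between the states by the threshold, with 0 of 5 genes called in WT livers (0.0071% of all genes tested) and 0 of 5 in LKO livers (0.0492%). At an unadjusted p under 0.05 these were 1 (Loxl4) and 0, and by DESeq2 1 of 2 with an adjusted p (Loxl4) and 0 of 5.

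Most other antimicrobial genes were absent or too low to be tested. Of 30 listed genes, 9 had 0 counts in all 72 libraries, among them Defb2, Defb3, Defb4, Defb5, Defb6, Defb7, Defb8 and Defb10, and Defb11 and Defb14 had 1 count each. In SPF mice 11 genes were tested, with 1 higher and 3 lower in LKO, and in GF mice 10, with 1 higher and 4 lower, where 11.5% and 15.2% of all genes were called lower. Without the 2 SPF LKO libraries 4 were lower in SPF mice, with Lcn2 added (-1.39, adjusted p = 0.0184 by edgeR). The peptidoglycan amidase Pglyrp2 was higher by 0.29 (SE 0.08) and 0.26 (SE 0.08). Wfdc2 was lower by -1.25 (SE 0.25) in SPF mice, lysozyme (Lyz2) by -0.45 (SE 0.10) and -0.26 (SE 0.10), and Ang by -0.50 and -0.32. The median log2 fold change of the tested genes was -0.45 in SPF and -0.29 in GF mice, beside -0.01 and 0.01 for all genes. Hamp2 (-0.74, SE 0.20) and S100a8 (-0.90, SE 0.34) were lower in GF mice. Hepcidin (Hamp), the liver peptide that limits iron export, and Leap2 were not called in either state.

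Per kilobase of exon, Lpl was the highest of the 5 genes in LKO livers, with a median of 68.1 CPM per kb in the 16 SPF LKO libraries. Defb1 (12.03) and Loxl4 (10.3) followed with overlapping ranges of 7.74 to 19.1 and 5.50 to 15.6, then Slc34a2 (5.29) and Ntrk2 (2.99), whose ranges of 2.76 to 9.62 and 2.26 to 5.94 also overlapped. In GF LKO livers the order of the medians was the same, at 83.9 for Lpl, 19.4 for Defb1, 12.1 for Loxl4, 4.62 for Slc34a2 and 0.61 for Ntrk2. The exon model of Defb1 holds 872 bases and that of Ntrk2 19292.

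Within LKO livers few pairs of the 5 genes were called as varying together. After the mean of each ZT was removed, 2 of 20 relations (10 pairs in each of 2 groups) passed a permutation test over libraries within ZT. Slc34a2 and Loxl4 varied together in GF LKO livers (Pearson r = 0.63, permutation p = 0.00344, adjusted 0.0344, and Spearman rho = 0.76, p = 0.00312, adjusted 0.0312, n = 18), with r = 0.84 without the 2 libraries farthest in Slc34a2. In SPF LKO livers the same pair had r = 0.54 (permutation p = 0.12, adjusted 0.6) and rho = 0.44 (p = 0.187, adjusted 0.619, n = 16). Lpl and Defb1 varied together in SPF LKO livers (r = 0.67, permutation p = 0.00318, adjusted 0.0344, and rho = 0.69, p = 0.0018, adjusted 0.0312, n = 16, and r = 0.65 without the 2 farthest). In GF LKO livers they had r = 0.19 (permutation p = 0.48, adjusted 0.829) and rho = 0.33 (p = 0.253, adjusted 0.619). Whether either relation differed between the states was not tested. With all 18 SPF LKO libraries, every pair had an r of 0.82 to 0.98, which rests on the 2 libraries at WT-like levels.

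**Figure D5:**
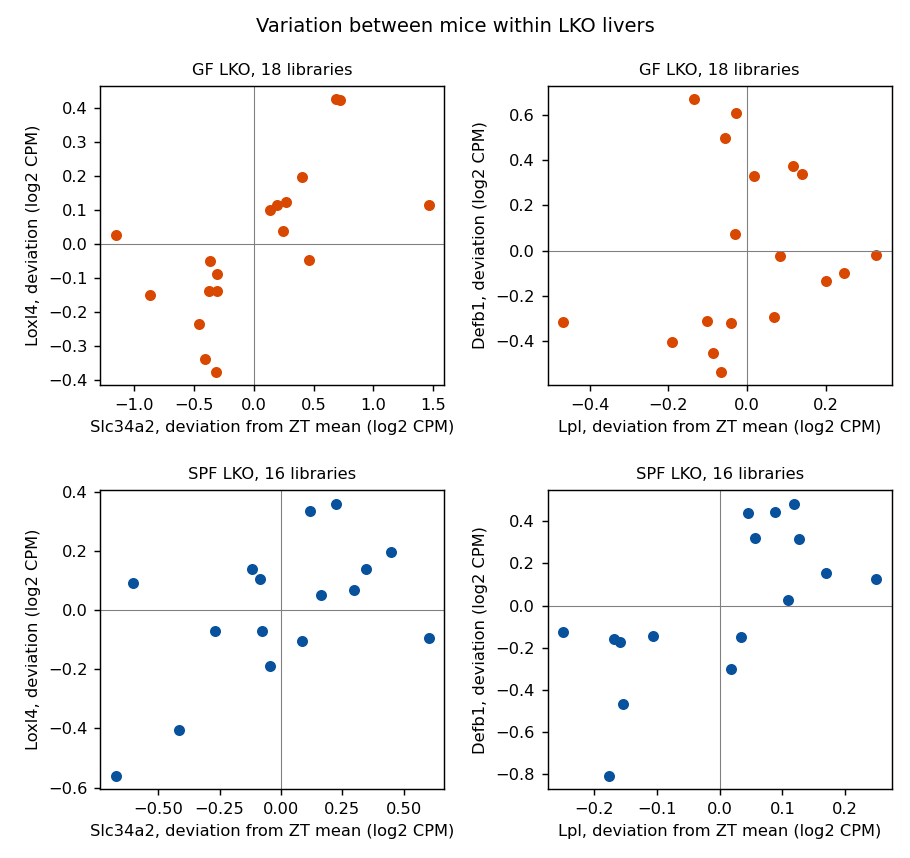
Deviation of log2 CPM from the mean of its ZT in single LKO livers, for Slc34a2 against Loxl4 (left) and Lpl against Defb1 (right), in GF LKO (18 libraries, top) and SPF LKO (16 libraries, bottom). The points rise together for Slc34a2 and Loxl4 in GF LKO (r = 0.63) and for Lpl and Defb1 in SPF LKO (r = 0.67).

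Over all 72 libraries the genes most like each member in log2 CPM were found by Pearson r among 13418 genes kept by the filter. The points share the genotype step, so r is given as a description. Loxl4 was followed most closely by Grk5 (r = 0.986), Npas2 (0.95) and Chic1 (0.944), and Slc34a2 by Srgap3 (0.938), Cdcp1 (0.928) and Grk5 (0.926). For Lpl the closest were 4930459C07Rik (0.978), the glutathione transferase Gstm2 (0.961) and Gm11454 (0.958), and for Defb1 they were Gm11454 (0.945), Ccni (0.939) and 4930459C07Rik (0.935). Ntrk2, the gene called for microbial status in LKO livers, was matched at lower r, by Cyp2c55 (0.896), Gstm1 (0.891) and Pyroxd2 (0.885). Gstm1, Gstm2 and Cyp2c55 belong to families with close copies, whose shared reads were left out of the counts.

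Markers of other cell types were counted beside these differences. Adipocyte transcripts were nearly absent, since Adipoq and Plin1 had at most 0.047 mean CPM in any group and Lep had 0 counts. The summed list, mostly Fabp4, ran from 7.45 to 16.2 CPM in SPF WT and 7.09 to 12.8 in SPF LKO. In GF WT it ran from 8.44 to 18.5 CPM and in GF LKO from 8.55 to 25.4. Of 6 adipocyte markers, only 1 was tested in each state, and it was not called. Cfd was not tested, at 1.05 and 0.16 mean CPM in SPF WT and SPF LKO and 1.38 and 0.0178 in GF WT and GF LKO. Summed muscle markers stayed at or under 0.862 CPM and kidney markers at or under 0.478 CPM in every library, and the lung marker Sftpc at or under 0.015 mean CPM. Of 5 lung markers, Sftpa1 was tested, at 2.06 and 1.964 mean CPM in SPF WT and SPF LKO (not called) and 1.02 and 1.82 in GF WT and GF LKO (0.85, SE 0.24). Of 8 cholangiocyte markers, Sox9 was higher in SPF LKO and GF LKO (1.17, SE 0.20, and 0.78, SE 0.17) and Spp1 in GF LKO (1.18, SE 0.13), Muc1 was lower in SPF LKO (-0.73, SE 0.25), and Krt7, Krt19 and Epcam were not called. Their sum ran from 33.8 to 100.3 CPM in SPF WT and 31.8 to 136.9 in SPF LKO, and from 27.97 to 58.3 in GF WT and 45.4 to 163.8 in GF LKO. Of 7 Kupffer cell markers, 4 were lower in SPF LKO and 3 in GF LKO (11.5% and 15.2% of all genes), and of 9 stellate and fibroblast markers 1 was higher in each state, Reln (0.32) in SPF and Lrat (0.38) in GF. Of 8 liver endothelial markers, 0 were higher and 2 lower in SPF LKO, and 1 was higher and 1 lower in GF LKO. Of 8 lymphocyte and neutrophil markers, 0 were called in SPF mice and S100a8 was lower in GF LKO. The hepatocyte markers Apoa1, Cps1 and Hnf4a were not called with all libraries. Without the 2 SPF LKO libraries, Hnf4a (-0.21, adjusted p = 0.0358) and Spp1 (0.48, adjusted p = 0.0206) were also called in SPF mice by edgeR. Albumin (Alb) itself was lower in LKO by -0.98 (SE 0.15) in SPF and -1.70 (SE 0.07) in GF mice. Ttr (-0.21) and Serpina1c (0.30) were also called in GF mice. The part of Sox9, Spp1, Sftpa1 or any of these cell types in the levels of the 5 genes was not tested.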

How the data were processed

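Bulk liver RNA was made into stranded mRNA libraries and read as single ends. Per the submitters' notes and the study's methods, the authors aligned reads with STAR 2.6.1b to mm10 and deposited raw counts per Ensembl gene from featureCounts 2.0.0 (exons of release 97, no strand option, reads of several genes or places left out). The counts are not normalized. Here they were scaled by TMM and tested with edgeR 4.0.16 (glmQLFit, glmQLFTest, filterByExpr) in R 4.3.3, and p-values were adjusted over all genes tested by the Benjamini-Hochberg method. DESeq2 1.42.0 served as an alternative. CPM was scaled over all 72 libraries, and log2 CPM used a prior count of 2. SE is the log2 fold change divided by the root of F. Correlations used 100000 permutations of libraries within ZT (scipy). Counts were simulated with 200 genes changed. With a group difference of 1 on the log2 scale, 187 were called for microbial status in LKO mice (8 others). For time, the change was a daily cosine that reached 1 on the log2 scale to either side of the mean. Of these genes, 158 were called for time of day in SPF WT (4 others) and 157 for the time profile in LKO mice (5 others).

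The members, lists and tests were chosen with earlier results of these data known. Named genes were the 5 members, 4 clock genes as a label check, the genes ranked 1 to 8 in each state, the 3 most similar genes of each member, called list genes that changed by 1 or more on the log2 scale, and well-known list members by role. Lists were counted without the members, with no set test. Libraries are separate mice, and 0 pairs were identical. Replicate numbers did not pair the mice: same-numbered mice correlated above 0.1 in 3 to 6 of 18 pairs per comparison. Intervals on counts cover counting error only. Promoters of Lpl and Defb1 and all proteins were not used here. Some list genes are not reported here.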

Additional observations from a re-analysis of the deposited data

How the results depend on the processing

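Of 91 alternatives, 75 counted as keeping the number of called genes (or the lowest genotype fold change). Of 144 that left out 1 library, 139 did so. A fall from 3 called genes to 2 still counted as kept. For single genes, the side of the threshold, and the sign for microbial status, were kept in 552 of 576 values without 1 library. With no filter on low counts, 5 of 5 genes were called over ZT in SPF WT and in SPF LKO, 4 in GF LKO, 3 in GF WT (Lpl added), and 2 and 4 for the time profile in WT and LKO livers. In those fits the prior degrees of freedom of the spread were infinite, so that all genes shared 1 spread. A filter of 10 counts in 3 libraries, chosen after seeing this, gave the main counts throughout. Without the libraries that stood apart, 2 of 3 genes were called for microbial status in LKO mice (Lpl added), 1 over ZT in SPF LKO (Loxl4) and 4 over ZT in SPF WT (Lpl added). In GF mice without the WT library that stood apart, LKO minus WT was 4.42 for Slc34a2 and 3.46 for Loxl4. It was 3.94 for Lpl and 3.82 for Defb1 (log2 fold changes). DESeq2 called 1 gene, Loxl4, for the time profile in WT livers.

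Without replicate 1, 2 or 3, between 0 and 1 genes were called for microbial status in WT mice (2 with all, Ntrk2 included) and 1 to 3 over ZT in SPF WT. The range was 1 to 3 in GF WT and 0 to 2 in GF LKO. With single libraries left out, 1 to 2 were called in GF LKO: Defb1 was added without ZT2 replicate 1 (adjusted p = 0.0258), ZT22 replicate 2 (0.0359), ZT6 replicate 1 (0.0438) or ZT18 replicate 3 (0.0455), and Slc34a2 without ZT10 replicate 1 (0.00557). Slc34a2 lost its call over ZT in SPF WT without any 1 of 9 libraries, namely the 3 at ZT6, the 3 at ZT10, ZT18 replicate 3, ZT22 replicate 2 and ZT22 replicate 3, at adjusted p up to 0.0729. The GF minus SPF difference of Slc34a2, near 0, was 0.20 without replicate 1 and -0.81 without replicate 3 in WT livers, where it did not pass the filter without replicate 2, and ran from -0.22 to 0.06 in LKO livers without replicate 1, 2 or 3. It was -0.53 in WT livers without GF WT ZT22 replicate 3. Over the WT and LKO comparisons together, its sign turned, to between 0.00 and 0.05, when any 1 of 9 other libraries was left out. The cause was not tested.

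With the replicate number and ZT as a replicate block, the counts were 2 of 3 for microbial status in WT and 1 of 3 in LKO mice, over ZT 3 of 5 in SPF WT, 0 in SPF LKO, 2 in GF WT and 1 in GF LKO, and 0 for both time profiles, as without it. The block moved the genotype fold change of Loxl4 in GF mice from 3.53 to 4.16. Depth limited Ntrk2 and Slc34a2 in WT livers most, where libraries held down to 1 and 0 counts.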
